A study of Mus musculus with 20 samples.

Results

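The genes described here make, import and use creatine in muscle. They were taken as 6 named genes (Gatm, Gamt, Slc6a8, Ckm, Ckmt2 and Ckb), and every probe set that the array annotation gives to just 1 of them was used. That rule found 8 probe sets, of 34945 single-gene probe sets in the table, with a pair each for Slc6a8 and Ckm. All 8 had a mean log2 intensity above the filter on dim probe sets, and so did 19467 probe sets in all, of 11201 genes.

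The samples are gastrocnemius, a muscle of the calf, from mice treated with saline or with JA16, an antibody that binds myostatin, the secreted inhibitor of muscle growth. The antibody was injected into the abdominal cavity at 0.12 mg per g of body weight on day 1 and 0.09 mg per g on day 3, and both groups were killed on day 5. Each group has 10 samples, measured on 1 array each, and no other agent or allele is named for either group. The sources used here do not give strain, sex or age, and nothing says that each sample came from its own mouse, so the p-values measure the spread between these samples. The comparison asks how muscle transcripts differ between JA16 and saline samples. Neither group was given a control antibody, so binding of myostatin and injection of an antibody cannot be told apart.

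Creatine is built in a pair of steps. The amidinotransferase encoded by Gatm joins the amidino group of arginine to glycine, and the methyltransferase encoded by Gamt adds a methyl group from S-adenosylmethionine to give creatine. Most of the body's creatine is held in skeletal muscle, and much of it arrives through the blood and the sodium-coupled transporter encoded by Slc6a8. Creatine kinases move phosphate between ATP and creatine. Ckm encodes the form of the muscle cytosol and contractile apparatus, Ckmt2 the form of muscle mitochondria, and Ckb the form of brain, smooth muscle and other cells.

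The stretches around the start sites of Gamt, Ckm and Ckb are shown because Gamt had the largest difference between the groups among these genes, while Ckm and Ckb stand for the kinases. RefSeq promoters (GRCm38.p6, 250 bases before the start to 50 after) matched 5 of the 6 genes. Slc6a8 was not among them. Motifs were searched on both strands: the TATA box TATANA, which 24.7% of all 32851 promoters in the table hold, the GC box GGGCGG (35.7%), the CCAAT box (37.4%), the E-box CANNTG (72.3%) and AAGGTCA (4.72%). Capitals mark matches of the TATA, GC and CCAAT boxes on either strand, and no match of one of these motifs overlaps a match of another in the windows shown.
Gamt, chr10:80260963-80261262, minus strand: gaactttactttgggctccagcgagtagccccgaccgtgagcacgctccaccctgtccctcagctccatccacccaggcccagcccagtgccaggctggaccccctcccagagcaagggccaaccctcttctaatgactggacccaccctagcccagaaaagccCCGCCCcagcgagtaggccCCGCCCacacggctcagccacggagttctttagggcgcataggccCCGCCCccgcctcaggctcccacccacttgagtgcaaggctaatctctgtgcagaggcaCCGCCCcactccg
Ckm, chr7:19410844-19411143, plus strand: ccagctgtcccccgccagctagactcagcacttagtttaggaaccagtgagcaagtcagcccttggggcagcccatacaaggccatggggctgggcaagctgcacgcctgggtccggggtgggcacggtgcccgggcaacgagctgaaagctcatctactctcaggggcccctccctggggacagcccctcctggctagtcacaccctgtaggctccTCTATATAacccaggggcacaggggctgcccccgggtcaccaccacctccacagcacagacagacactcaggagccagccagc
Ckb, chr12:111672289-111672588, minus strand: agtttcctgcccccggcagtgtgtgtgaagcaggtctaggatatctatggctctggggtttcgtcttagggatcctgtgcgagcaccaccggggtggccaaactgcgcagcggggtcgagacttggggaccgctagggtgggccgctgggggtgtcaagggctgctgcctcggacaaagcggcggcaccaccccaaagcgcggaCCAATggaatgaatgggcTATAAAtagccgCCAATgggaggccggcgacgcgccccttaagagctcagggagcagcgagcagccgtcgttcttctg
The Gamt window held 4 GC boxes, beginning 86, 67 and 22 bases before the start and at base 38 after it, and no TATA or CCAAT box. The Ckm window held a TATA box on the gene's strand 31 bases before the start, with overlapping matches on the other strand, and no GC box. The Ckb window held a TATA box 28 bases before the start and CCAAT boxes at 46 and 16 bases before it. Of the genes not printed, Gatm held 2 CCAAT boxes and 1 E-box, and Ckmt2 held 1 GC box, 2 CCAAT boxes and 4 E-boxes. Ckm and Gamt held 1 E-box each and Ckb none, and AAGGTCA was in none of the 5 windows. These matches describe the letters alone, and no binding was measured.

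Values are MAS5 intensities on a linear scale, with array medians between 38.9 and 77.1. Fold changes are on the log2 scale, JA16 minus saline, from limma with Benjamini-Hochberg adjustment over all 19467 probe sets and a threshold of 0.05. All 9 skeletal muscle markers checked (among them Acta1, Myh4 and Tnnt3) had intensities of at least 4094 on every array. Replicates 1 to 6 and 7 to 10 differ in the 3' to 5' ratio of the beta-actin control probe sets, in both groups alike. On the log2 scale this ratio was 1.33 to 1.84 in the 12 samples of the first set and 0.476 to 0.643 in the 8 of the second. The same ratio of the Gapdh control probe sets overlapped between the sets (0.208 to 0.414 and 0.182 to 0.321). These sets, called array sets below, were drawn from the beta-actin ratio, and the sample labels name no batch. Values within each set are therefore given beside the results of the members. Same-numbered samples deviated together in all 10 pairs, so limma with the replicate number as a block is given too. Such samples also share an array set, so their deviating together does not show a link beyond the set.

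None of the 8 probe sets passed the threshold in limma without the block, where 2 of all 19467 probe sets (0.0103%) did, or with it, where 45 (0.231%) did. At an unadjusted p under 0.05 there was 1 member without the block, Gamt, against 2.34% of all probe sets. With the block there were 2, Gamt and a Ckm probe set, against 15.9%. Of the 8 values, 5 were above 0 and 3 below, with a median of 0.074 beside -0.029 over all probe sets. The differences below are thus measured values that did not pass, and an adjusted p above the threshold does not show that a gene was the same in both groups.

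**Figure D1:**
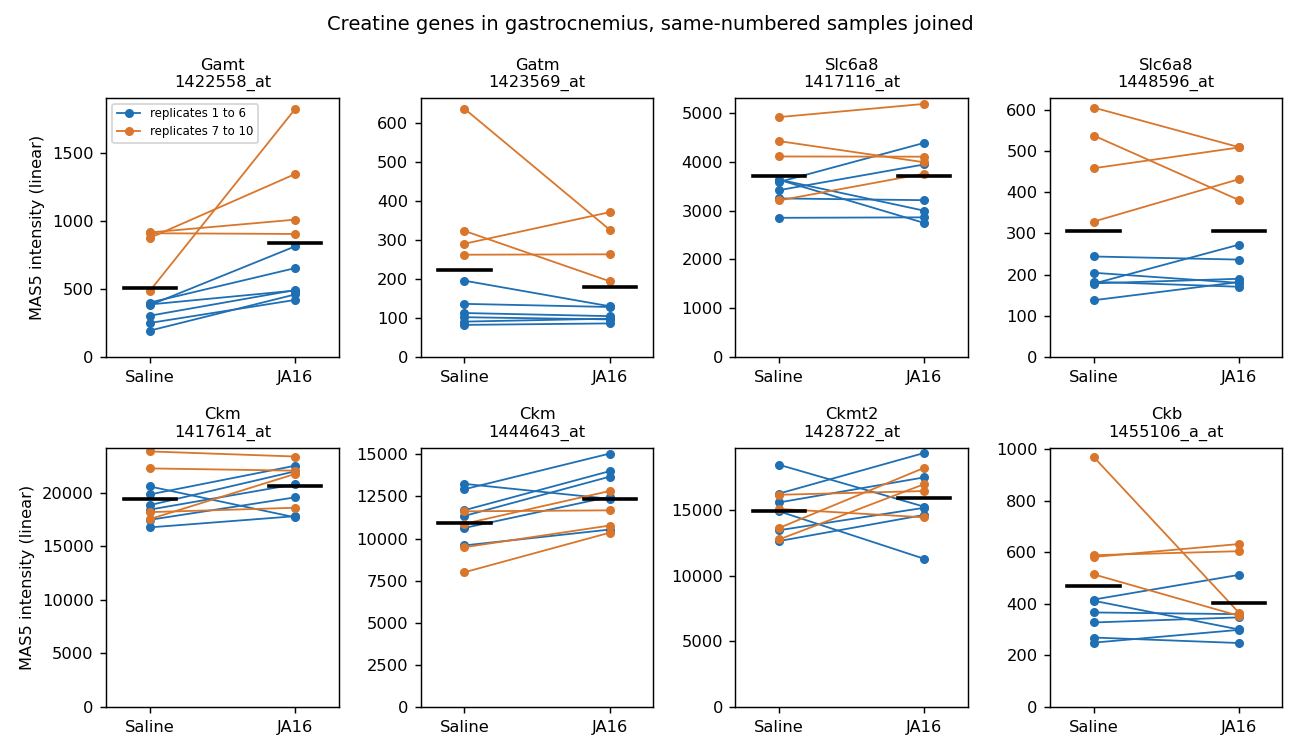
MAS5 intensity (linear, from 0) of each of the 8 probe sets in saline and JA16 samples, with a line joining samples of the same number and a black bar at each group's mean. Replicates 1 to 6 are blue and 7 to 10 orange: the Gamt lines climb in 9 of 10 pairs, and the orange samples of Slc6a8 1448596_at lie above all blue ones.

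Gamt, the methyltransferase of the second step, differed most. Its intensity in saline samples ran from 195 through a median of 395 to 916, and in JA16 samples from 421 through 734 to 1823. The groups overlapped, with saline replicates 7, 9 and 10 above the JA16 median, and JA16 replicate 8 highest of all. Means were 512 ± 281 and 842 ± 454 (SD, n = 10 each), a log2 fold change of 0.75 (SE 0.31) or 1.68-fold. The 95% interval was 0.096 to 1.40 without the block and 0.42 to 1.07 with it. The limma adjusted p was 1.00 without the block (unadjusted 0.0264) and 0.0639 with it (unadjusted 0.000177, the 54th smallest of 19467).

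JA16 was higher for Gamt in 9 of 10 pairs, a count that 3.1% of all probe sets reached in this direction (3.49% in the other). The largest pair difference was 1.90, in pair 8, followed by 1.24 in pair 4 and 1.09 in pair 1. Pairs 3, 5, 6 and 7 lay between 0.62 and 0.74, pairs 2 and 9 at 0.34 and 0.14, and pair 10 at -0.0081. Pair 8 joins the lowest saline value of replicates 7 to 10 (488) to the highest JA16 value. Without JA16 replicate 8 the log2 fold change was 0.60, and without pair 8 it was 0.62 with the block (adjusted p = 0.106). Without pair 10 Gamt passed (0.83, blocked limma adjusted p = 0.0462). Over the 10 blocked fits that each lacked 1 pair, the limma adjusted p ran from 0.0462 to 0.179.

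Gamt intensities also differed between the array sets. Saline samples averaged 321 ± 84.3 in replicates 1 to 6 and 798 ± 207 in replicates 7 to 10. JA16 samples averaged 556 ± 150 and 1271 ± 413. The difference between treatments was of like size in each set: a log2 fold change of 0.80 (SE 0.14, blocked limma adjusted p = 0.288) for replicates 1 to 6, and of 0.66 (SE 0.28, adjusted p = 0.721) for replicates 7 to 10. All 6 pairs of the first set were above 0, and 3 of the 4 of the second. The interaction of treatment with array set, a test added after the values were seen, was -0.14 (SE 0.32, limma adjusted p = 1.00).

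**Figure D2:**
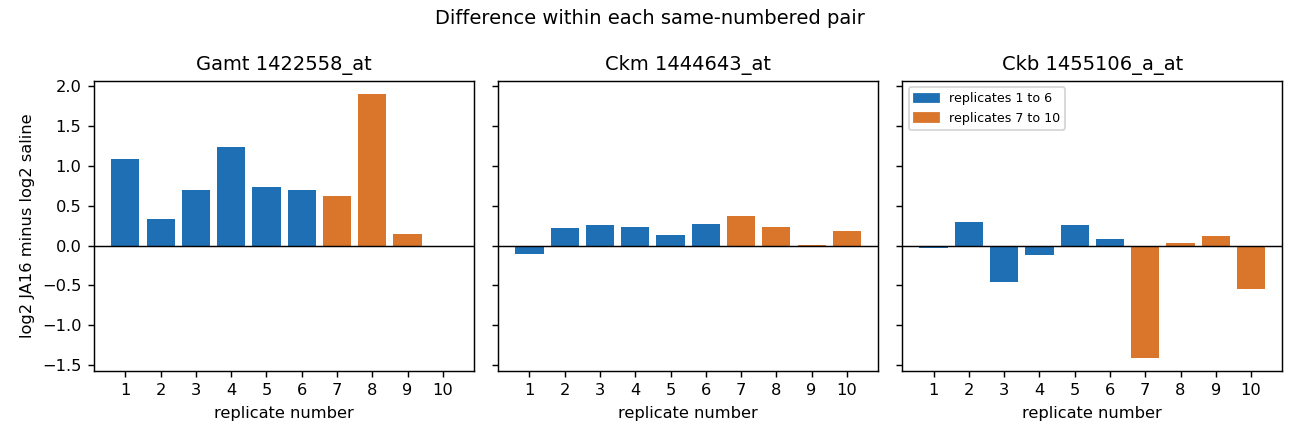
Log2 JA16 minus log2 saline in each same-numbered pair, as bars, for Gamt, the dimmer Ckm probe set and Ckb; replicates 1 to 6 are blue and 7 to 10 orange. Gamt is above 0 in 9 pairs with pair 8 highest at 1.90, Ckm is above 0 in 9 pairs at smaller sizes, and Ckb is at -1.41 in pair 7.

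For Gatm, the amidinotransferase of the first step, saline samples ran from 82.8 through a median of 166 to 637, and JA16 samples from 86.6 through 130 to 372. The ranges overlapped almost wholly. Saline replicate 7 held the highest value, and the next saline value was 324. The log2 fold change was -0.20 (SE 0.36, 95% interval -0.96 to 0.55, limma adjusted p = 1.00). With the block the interval was -0.50 to 0.092 (adjusted p = 0.475), and JA16 was lower in 6 of 10 pairs. Without saline replicate 7 the value was 0.00026. Saline samples of replicates 1 to 6 averaged 120 ± 41.6 and those of replicates 7 to 10 378 ± 174, so that Gatm lay 1.62 higher in the second set on the log2 scale in saline and 1.40 higher in JA16 samples. Within the sets the log2 fold change was -0.11 (SE 0.18) and -0.33 (SE 0.24).

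The creatine transporter gene Slc6a8 was nearly level between the groups. On the brighter probe set, 1417116_at, saline samples ran from 2852 through a median of 3608 to 4913, and JA16 samples from 2747 through 3851 to 5184. The means were 3702 ± 617 and 3718 ± 769 (SD, n = 10). The groups overlapped over nearly their whole range, and each direction was found in 5 of 10 pairs. The log2 fold change was -0.0039 (SE 0.12, limma adjusted p = 1.00), with an interval of -0.26 to 0.25 without the block and -0.15 to 0.14 with it. This value turned to 0.065 with centred array medians. Replicates 1 to 6 alone gave -0.032 (SE 0.097), and replicates 7 to 10 alone 0.039 (SE 0.11).

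The dimmer Slc6a8 probe set, 1448596_at, gave 0.057 (SE 0.30, limma adjusted p = 1.00), with an interval of -0.19 to 0.30 in the blocked fit, and it too was split 5 to 5 over the pairs. Saline samples ran from 138 through 224 to 605 and JA16 samples from 171 through 255 to 509. Here all 8 samples of replicates 7 to 10 were above all 12 of replicates 1 to 6, with 273 the highest in the first set and 328 the lowest in the second. Of all probe sets, 8.59% were split the same way. For 1448596_at the log2 fold change was 0.13 (SE 0.16) in replicates 1 to 6 alone and -0.051 (SE 0.19) in replicates 7 to 10 alone. The brighter probe set overlapped between the sets (2747 to 4386 and 3208 to 5184). The array set difference in saline was 1.35 on the log2 scale for the dimmer and 0.28 for the brighter probe set, so the pair of probe sets of this gene differ in how far they vary between the array sets.

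Ckm, the muscle kinase, was measured by a pair of bright probe sets with small differences in the same direction. On 1417614_at saline samples ran from 16755 through 18622 to 23842, and JA16 samples from 17692 through 21259 to 23369. These ranges overlap, and the highest sample is a saline one, replicate 9. The log2 fold change was 0.091 (SE 0.071, limma adjusted p = 1.00), with JA16 higher in 7 of 10 pairs. The blocked interval was -0.0070 to 0.19 (adjusted p = 0.343). Replicates 1 to 6 alone gave 0.10 (SE 0.062), and replicates 7 to 10 alone 0.075 (SE 0.072).

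On the other Ckm probe set, 1444643_at, saline samples ran from 7997 through 11111 to 13248, and JA16 samples from 10348 through 12419 to 15046. The groups overlapped, but every JA16 sample was above saline replicates 5, 7 and 10. The means were 10940 ± 1604 and 12371 ± 1572 (SD, n = 10), and JA16 was higher in 9 of 10 pairs, the exception being pair 1. The log2 fold change was 0.18 (SE 0.091, limma adjusted p = 1.00), a difference of 13.4%. With the block the SE was 0.046 and the interval 0.083 to 0.28 (unadjusted p = 0.0013, adjusted p = 0.137). Without pair 1 this probe set passed (0.21, blocked limma adjusted p = 0.0484). Over the 10 blocked fits that each lacked 1 pair, the limma adjusted p ran from 0.0484 to 0.314. Without saline replicate 7, its lowest sample, the value in the fit without the block was 0.13. Replicates 1 to 6 alone gave 0.17 (SE 0.061), and replicates 7 to 10 alone gave 0.20 (SE 0.083). With quantile normalization the probe sets were at 0.11 and, for 1417614_at, 0.023.

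Ckmt2, the kinase of muscle mitochondria, ran from 12660 through a median of 15024 to 18485 in saline and from 11304 through 15880 to 19388 in JA16 samples. JA16 samples were both the lowest (replicate 3) and the highest (replicate 2). The log2 fold change was 0.092 (SE 0.088, limma adjusted p = 1.00), with JA16 higher in 7 of 10 pairs. The blocked interval was -0.062 to 0.25 (adjusted p = 0.537). Replicates 1 to 6 alone gave 0.021 (SE 0.089), replicates 7 to 10 alone 0.20 (SE 0.095), and quantile normalization of all arrays 0.027.

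Ckb, the kinase of brain and smooth muscle, ran from 249 through 414 to 970 in saline and from 248 through 357 to 632 in JA16 samples. The groups overlapped except for saline replicate 7, whose 970 stood above the next saline value, 589. The log2 fold change was -0.17 (SE 0.23, limma adjusted p = 1.00), with each direction in 5 of 10 pairs. The blocked interval was -0.48 to 0.13 (adjusted p = 0.558). Without saline replicate 7 it was -0.046, and without pair 7 -0.038 in the blocked fit. In the array sets it was 0.0074 (SE 0.14) and -0.45 (SE 0.25), and the added interaction test gave -0.46 (SE 0.28, limma adjusted p = 1.00).

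Saline replicate 7, highest for Gatm and Ckb, also had the highest summed intensity of the 6 macrophage and leukocyte markers, 23574. The other 19 samples ran from 5306 through a median of 8292 to 19587. The sample at 19587, JA16 replicate 1, is in the other array set and had 105 for Gatm and 360 for Ckb. JA16 samples of replicates 1 to 6 averaged 108 for Gatm and 345 for Ckb. Saline samples of replicates 7 to 10 averaged 378 and 664. Saline replicate 7 also had the highest array median, 77.1. Its sum of the 7 measured smooth muscle markers, 21633, was below the median of the others, 22462. These 7 include Des, also listed as a skeletal muscle marker, at 10817 to 17335 over the arrays. The smooth muscle sum thus does not single out smooth muscle. For the 9 skeletal muscle markers, the sum in saline replicate 7, 161095, was the lowest of all samples (162520 to 239716 in the others). The part of these markers in the Gatm and Ckb values was not tested. In whole muscle, fewer cells of a type and less RNA per cell cannot be told apart.

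**Figure D3:**
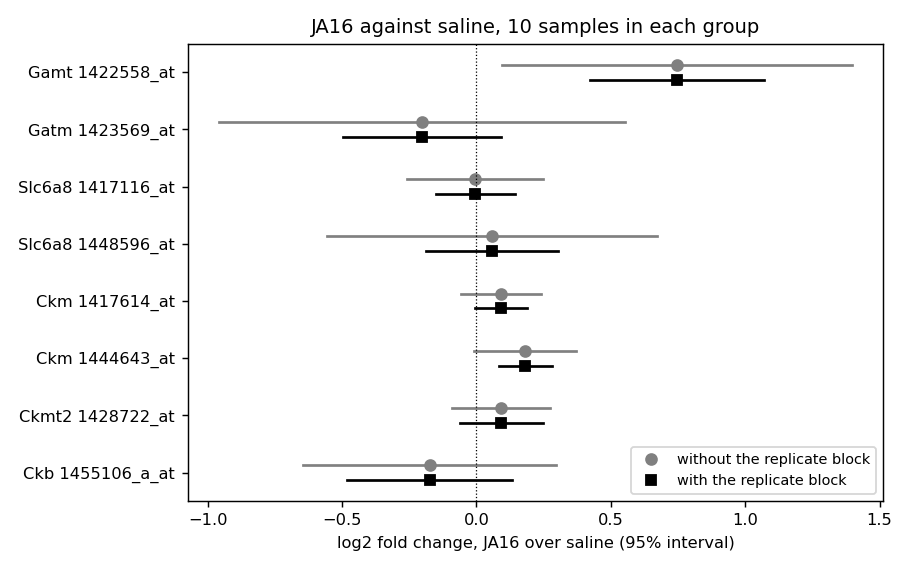
Log2 fold change of JA16 over saline for each of the 8 probe sets, with 95% intervals from limma without the replicate block (grey circles) and with it (black squares). The intervals of Gamt lie above 0 in both fits and that of Ckm 1444643_at with the block only, and none of the 8 passed after adjustment over all probe sets.

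The members also differed in how steady they were between samples. The SD of log2 intensity among saline samples was 0.16 and 0.22 for the Ckm probe sets, 0.17 for Ckmt2 and 0.23 for the brighter Slc6a8 probe set. It was 0.59 for Ckb, 0.76 for the dimmer Slc6a8 probe set, 0.79 for Gamt and 0.96 for Gatm. On every array the first 4 were brighter than at least 93.0% of probe sets, while the others stood between 58.1% and 90.2%. The less steady probe sets are also those with the larger array set differences in saline: 0.95 for Ckb, 1.32 for Gamt, 1.35 for the Slc6a8 probe set and 1.62 for Gatm, against -0.22 to 0.28 for the others. Within pairs, which share an array set, the SD of the difference was 0.56 for Gamt, 0.42 for Gatm and 0.51 for Ckb. The SD among saline samples spans both array sets and so includes the difference between them by construction. That the less steady probe sets differ more between the sets follows in part from this. How far brightness or biology accounts for the rest was not tested, and intensities of different probe sets are not levels that can be set against each other.

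Fibre type was examined beside the kinases because the mitochondrial form is known to be more abundant in oxidative fibres. All 10 slow fibre markers listed for this had values below 0 (median -0.56), with 0 past the limma threshold and 0 at an unadjusted p under 0.05 in either fit, and their summed intensity was 49564 to 113463 in saline and 7879 to 136566 in JA16 samples. JA16 replicate 3 was the lowest and JA16 replicate 2 the highest. Without JA16 replicate 3 the median was -0.24, with 8 of 10 below 0. Over the 10 pairs, the difference of each gene's brightest probe set was compared with the mean difference of the slow fibre markers, 6 relations in all. For Ckmt2 Pearson's r was 0.42 (permutation p = 0.23, adjusted 0.461) and Spearman's rho 0.15 (p = 0.681, adjusted 0.681), and r was -0.50 without pairs 2 and 3, the farthest from the median. The positive value rests on those pairs. For Ckm r was -0.38 (permutation p = 0.277, adjusted 0.461) and rho -0.44 (p = 0.205, adjusted 0.567), and r was -0.62 without those pairs. After quantile normalization the Ckm relation was -0.78 (permutation p = 4e-05, adjusted 0.00024). Slc6a8 had r = 0.58 (permutation p = 0.0762, adjusted 0.457; rho 0.30, p = 0.406, adjusted 0.567) and -0.35 without those pairs. Gatm, Ckb and Gamt had r of 0.36, 0.25 and -0.15 (rho 0.28, 0.26 and -0.26), with permutation p between 0.307 and 0.67 for r. Within replicates 1 to 6, the set with enough pairs, r was 0.86 for Gatm and 0.86 for Ckb (exact permutation p = 0.0333 and 0.0347, each 0.104 adjusted over the 6 genes), with rho of 0.49 and 0.83. In that set it was 0.63 for Slc6a8, 0.49 for Ckmt2, -0.44 for Ckm and -0.26 for Gamt, with adjusted p between 0.336 and 0.626.

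**Figure D4:**
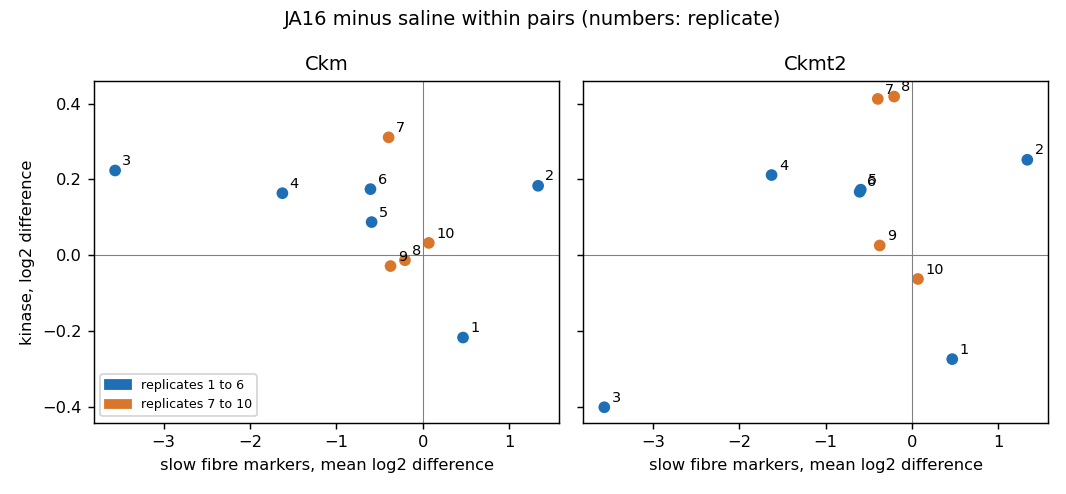
Within-pair log2 difference (JA16 minus saline) of Ckm and Ckmt2 against the mean log2 difference of the slow fibre markers, 1 point a pair, numbered by replicate; replicates 1 to 6 are blue and 7 to 10 orange. Pair 3 lies far to the left at -3.56, with Ckmt2 at -0.40 and Ckm at 0.22.

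Other marker lists were measured beside the members, and none had a marker past the threshold in limma, with or without the block. All 6 measured nerve and Schwann markers had values below 0 (median -0.60, 4 at an unadjusted p under 0.05 and 5 with the block), with summed intensities of 9222 to 18784 in saline and 6529 to 18250 in JA16 samples. Fast fibre markers had values above 0 for 9 of 10 (median 0.048, 0 unadjusted and 2 with the block), as the Ckm probe sets did. Their sums were 184503 to 238472 in saline and 190335 to 277574 in JA16 samples, and the median was 0.020 without JA16 replicate 3. The medians were -0.38 for 4 adipocyte, -0.20 for 8 fibroblast and tendon, -0.19 for 6 endothelial, -0.098 for 6 macrophage and leukocyte and -0.080 for 7 smooth muscle markers. The part of these markers in the members' values was not tested.

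Genes that work next to the creatine system were taken from fixed lists, with 1 probe set a gene. Over all 11201 genes, limma called 4 without the block (0.0357%, and 2.65% at an unadjusted p under 0.05) and 31 with it (0.277%, and 16.2% unadjusted). Of these genes 45.8% had a value above 0, and the median was -0.016. Of 14 measured enzymes of phosphate transfer and adenine nucleotides, 0 passed in either fit, with 1 at an unadjusted p under 0.05 and 3 with the block. Values were above 0 for 10 of the 14, with a median of 0.047. Ak1, the adenylate kinase of the muscle cytosol, was at 0.093 (SE 0.098), Ampd1, the muscle AMP deaminase, at 0.11 (SE 0.070), and Ampd3 at -0.27 (SE 0.16). Nme1, a nucleoside diphosphate kinase, was at 0.28 (SE 0.12, limma adjusted p = 1.00, blocked 0.192). Ckmt1, the mitochondrial kinase of other tissues, was under the filter, with intensities of 1.2 to 35.2 on its brighter probe set.

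Of 8 measured mitochondrial carriers and porins, which pass ATP, ADP and phosphate, 0 passed, with 0 at an unadjusted p under 0.05 and 2 with the block. Their median was 0.067 and turned to -0.010 with quantile normalization. Vdac2, a porin of the outer membrane, was at 0.15 (SE 0.077) and the ATP carrier gene Slc25a24 at -0.39 (SE 0.31). Of 18 measured genes that supply arginine, glycine and methyl groups, 0 passed (0 and 4 at an unadjusted p under 0.05), with a median of 0.037. Gnmt, a methyltransferase that like Gamt spends S-adenosylmethionine, was at -0.33 (SE 0.17), lower in 9 of 10 pairs (blocked limma adjusted p = 0.243). Nos1, which uses arginine to make nitric oxide, was at -0.43 (SE 0.23, blocked limma adjusted p = 0.101).

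Of 6 measured carriers other than Slc6a8, from its family or reported to carry creatine, 0 passed (0 and 1 at an unadjusted p under 0.05), with a median of -0.10. Slc6a2, the noradrenaline transporter gene, was at -0.45 (SE 0.23) and Slc16a12, another creatine carrier gene, at -0.41 (SE 0.31). Of 19 muscle and oxidative transcription factors, 0 passed (1 and 6 at an unadjusted p under 0.05) and 15 had values below 0, with a median of -0.13. Myf6, a myogenic factor of mature fibres, was at 0.16 (SE 0.073), higher in 9 of 10 pairs (blocked limma adjusted p = 0.198), and Six4 at -0.39 (SE 0.19), lower in 9 of 10 (0.199).

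The genes whose pattern was most like each member's were found by Pearson correlation over the 20 samples after subtracting each group's mean, and are given as a description. For Gamt these were Exoc3l4 (0.94), Itpa (0.94) and P4ha2 (0.94), and for Gatm Pdia3 (0.96), Leo1 (0.95) and Thumpd1 (0.94). For Ckb they were Tm4sf1 (0.94), Maged1 (0.93) and Rab3il1 (0.92). These samples share the array set split, and after its means were also subtracted the values for the 9 genes ran from 0.68 for Thumpd1 to 0.89 for Tm4sf1. For Ckm they were Myoz1 (0.94), a Z-disc gene, Sar1b (0.93) and Tmod4 (0.91), which caps actin filaments in muscle. For Ckmt2 they were Ppif (0.88), the mitochondrial cyclophilin, Evc (0.86) and Wfs1 (0.85), and for Slc6a8 Acadvl (0.93), an enzyme of fatty acid oxidation, Mzt2 (0.92) and Tbl3 (0.92). For these 3 members the values stayed between 0.87 and 0.96 without the array set means.

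Over the 20 samples Gamt and Gatm correlated at 0.70 with the group means subtracted and at -0.30 with the array set means subtracted as well. Slc6a8 and Ckmt2 correlated at 0.57 and 0.70, and Slc6a8 and Ckm at 0.65 and 0.58. Of all combinations of members, Gamt and Ckb were highest with the group means subtracted, at 0.75, and had 0.38 with both subtracted. Gatm and Slc6a8 were lowest with both subtracted, at -0.57, and had 0.34 with the group means alone.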

How the data were processed

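The deposited table gives linear-scale intensities that the authors made with MAS5, per the submitters' processing notes, with no version. On all 20 arrays the mean was 500.0 after trimming 2% of probe sets at each end. The number of arrays limits the precision. A floor of 0.1 replaced 5 values that were not positive, and log2 was taken. Single-gene probe sets with a mean log2 intensity of at least 5.65, the median of all, were tested. limma 3.58.1 in R 4.3.3 (lmFit, eBayes with a trend) compared the groups, without the replicate block and, as an alternative, with it. Tested on simulated data over the 19467 probe sets, the fit without the block recovered 65.0% of changes of 1 on the log2 scale. It recovered 97.0% of changes of 2, with 5 false calls. The simulated samples were drawn independently, without the pairing or the split between array sets. These shares are therefore a check of the code and not the power for these data. Same-numbered samples correlated at 0.453 to 0.788 in their deviations from the group means, in 10 of 10 pairs above the limit of 0.1. The pairing was taken from the labels' numbers. Same-numbered samples share an array set, so the correlations cannot show pairing beyond the set. For samples of different numbers the median was -0.142, which includes samples of different sets.

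The members and lists were chosen with earlier results of these data known. Named genes were all members, the 2 of each list with the smallest p, Ckmt1, Ak1 and Ampd1, and the 3 most correlated with each member. Relations were tested with scipy 1.17.1 and 100000 resamples. Other alternatives were the filter, probe sets a gene, normalization, a pseudocount, the array set, and samples left out.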

Additional observations from a re-analysis of the deposited data

How the results depend on the processing

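The count of member probe sets past the threshold was 0 in every fit on all samples (with the replicate block, without the filter, with 1 probe set a gene, with quantile normalization, alone or with the block, with centred medians, with 16 added before log2, with the array set as a block, or in either array set alone). It was 0 with any 1 sample left out, and 0 to 1 in blocked fits that lacked 1 pair. The count over all probe sets was 2, but 45 with the replicate block, 40 with the block and quantile normalization, 10 with the array set as a block, 4 with 1 probe set a gene and 0 in either array set alone. Without 1 sample it was 2 to 5, and with the block and without 1 pair 10 to 53. Of 318 single values under these settings, 293 kept their direction and their side of the threshold, 2 passed and 23 changed sign. Gamt ran from 0.60 to 0.86 without 1 sample and 0.62 to 0.83 with the block and without 1 pair.

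The sign changes were in both Slc6a8 probe sets, whose values lay near 0, and in 1 setting each for Gatm (-0.20) and Ckb (-0.17). Slc6a8 1417116_at was at 0.065 with centred medians and 0.039 in replicates 7 to 10 alone, and ran from -0.060 to 0.043 without 1 sample and, with the block and without 1 pair, from -0.037 to 0.040, including 0.027 without pair 1 and 0.012 without pair 9. Slc6a8 1448596_at was at -0.051 in replicates 7 to 10 alone, and ran from -0.0497 to 0.19 and from -0.0047 to 0.12. Gatm ran from -0.34 to 0.00026 without 1 sample, and Ckb was at 0.0074 in replicates 1 to 6 alone. The Ckmt2 relation to slow fibre markers was -0.22 without replicate 3, and that of Ckm -0.78 with quantile normalization (adjusted p = 0.00024, and 0.461 to 0.707 in the other settings run on all samples or without replicate 3). The cause was not tested. The lists had 0 genes past the threshold with the replicate block, with quantile normalization and without the filter. No value for background on each array was used, so how far dim probe sets such as Gatm lie above it is not known here.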
